A study of Mus musculus with 8 samples.

Results

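The chemokine ligand family was described in cells of parietal bone from newborn (P4-5) mouse pups, in which transcripts were tagged at their 3′ end in droplets and counted by unique molecular identifiers (UMIs). Members were all genes whose symbol is Ccl, Cxcl, Cx3cl or Xcl followed by a number and, in some, an a or b, which gave 42 gene identifiers of 31053 in all. There were 4 wild type (WT) libraries and 4 libraries of heterozygous (Het) pups carrying 1 Col1a2 allele in which a triple helical glycine is changed to cysteine, a model of osteogenesis imperfecta. Strain B6.129(FVB)-Col1a2tm1Mcbr/J was given for both genotypes. Each library held cells pooled from up to 5 animals of 1 genotype, so a library was the replicate and animals within it could not be told apart. WT libraries 1 and 2 and Het libraries 3 and 4 were made with kit version 3, and WT libraries 5 and 6 and Het libraries 7 and 8 with kit version 3.1. Cells were released from minced bone by collagenase (15 min at 37 °C).

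Chemokines are small secreted proteins that guide migrating cells through G protein-coupled receptors. Cxcl12, Cxcl14 and Ccl25 are commonly classed as homeostatic, being made in unstimulated tissue, whereas Ccl2, Ccl3, Ccl4, Ccl7, Cxcl1, Cxcl2 and Cxcl10 are inducible in inflammation and recruit monocytes, neutrophils or T cells. In bone marrow, Cxcl12 made by stromal cells and osteoblasts retains haematopoietic stem cells and B cell precursors through its receptor Cxcr4. Atypical receptors (Ackr) bind chemokines without G protein signalling and remove or transport them, Ackr3 acting on Cxcl12 and Ackr4 on Ccl19, Ccl21 and Ccl25.

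Cells with at least 500 genes and under 10% mitochondrial UMIs were kept, 46420 in all. Osteoblasts (OBs) were cells in which Col1a1 reached 10 UMIs and 2 or more of Runx2, Sp7 and Ibsp reached 2 UMIs, divided by the percentage of a cell's UMIs that came from Col1a1 into early (eOB, under 0.75%, 379 cells), differentiating (dOB, 0.75 to 3.5%, 1217 cells) and mature (mOB, over 3.5%, 1075 cells) OBs. The other groups were 5999 cells with a UMI of Ptprc (CD45, the pan-leukocyte gene), 3928 cells with a UMI of Cdh5 (VE-cadherin, an endothelial gene) and 33580 remaining cells, while 242 cells with both UMIs were set aside. Libraries held 30480239 to 85162035 UMIs with a median of 3762 to 14264 UMIs per kept cell, and no pair shared more than 61 cell barcodes or more than 0.663% of the smaller library. Levels are given as UMIs per 1000000 UMIs of the group of cells (CPM). The summed endothelial markers were at 3911 to 5164 CPM in Cdh5 cells and at most 79.8 in Ptprc and remaining cells, and osteoblast markers at 8651 to 42673 in OBs and at most 2105 in the remaining cells. The eOBs also held endothelial markers and the Cdh5 cells cartilage markers, as given below. Cells with cartilage markers were abundant, with 19459 of the remaining cells in a chondrocyte-like class by markers, from 141 in WT library 1 to 6524 in WT library 5. WT libraries 1 and 2 stood apart by their haematopoietic cells, with 1236 and 1013 neutrophil lineage-like Ptprc cells where the other libraries held 9 to 105. The allele changes 1 codon, so UMI counts could not check the genotype labels.

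Of the 42 identifiers, 34 had at least 1 UMI in kept cells and 20 had at least 200. The 8 without a UMI were Ccl20, Ccl27b, both identifiers of Ccl21b, both of Ccl27 and the second identifiers of Ccl19 and Ccl21a. Ccl19, Ccl21 and Ccl27 have near-identical copies that can share reads, so the low counts of Ccl19 (14 UMIs) and Ccl21a (17 UMIs), and that of Ccl27a (1487), are uncertain. Cxcl14 had the most UMIs (30415), followed by Cxcl12 (24487), Ccl6 (12985), Ccl9 (12667), Cxcl2 (10702) and Ccl25 (9373). The members with under 200 UMIs ranged from Ccl26 (4 UMIs) and Ccl1 (7) to Ccl28 (188) and Xcl1 (191). UMIs were spread unevenly over cells. Of the UMIs of Ccl25, 50% lay in 2448 cells, while 121 cells held 50% of Cxcl2, 188 cells of Ccl9, 64 cells of Ccl12 and 8 cells of Ccl5.

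The members lie in a few clusters of the genome (build GRCm38, GENCODE M21). Chromosome 11 holds 12 of them, among them the monocyte attractants Ccl2, Ccl7, Ccl12 and Ccl8 with the eosinophil attractant Ccl11 at chr11:82035571-82116799 and Ccl5, Ccl9, Ccl6, Ccl3 and Ccl4 at chr11:83525778-83664683. Cxcl5, Cxcl3, Cxcl15, Cxcl1 and Cxcl2 lie together at chr5:90759360-90905938. Cxcl12 (chr6:117168535-117181367, plus strand), Cxcl14 (chr13:56288643-56296551, minus strand) and Ccl25 (chr8:4325210-4360020, plus strand) lie apart from these clusters. Genes on the opposite strand overlap 6 of the 20 members with at least 200 UMIs, over all of Ccl2 (Gm17268), Ccl6 (E230016K23Rik) and Cxcl10 (Art3), 552 bases of Cxcl16 (Zmynd15), 204 bases of Ccl25 (Elavl1) and 8 bases of Ccl27a (Il11ra1). The sources used here do not state that counting used the strand, so their reads could not be separated with certainty.

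Promoters of 27 member symbols were in the RefSeq table (GRCm38.p6, 250 bases before to 50 after each start). Because NF-κB is the textbook inducer of inflammatory chemokines, each was searched on both strands for GGG, any 3 bases and TTCC in a row, a form of its binding motif. The motif was present in 7 of 33 member promoters (21.2%) and in 1825 of all 32851 (5.56%). Its holders were Cxcl1, Cxcl2, Cxcl3, Cxcl10, Ccl9, Ccl1 and Ccl20. None was found in the window of Cxcl12, Cxcl14 or Ccl25, nor in those of Ccl3, Ccl6, Ccl8 and Ccl12. Ccl2, Ccl4, Ccl5 and Ccl7 were not among the symbols searched. Stretches of 40 bases around a match are shown for the 4 holders with over 200 UMIs, with the matched letters in capitals. In Ccl9 the match is to the reverse complement, and in Cxcl1 and Cxcl2 a match on the other strand overlaps the one shown.
Cxcl1, chr5:90891159-90891198, plus strand: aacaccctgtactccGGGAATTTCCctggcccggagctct
Cxcl2, chr5:90903787-90903826, plus strand: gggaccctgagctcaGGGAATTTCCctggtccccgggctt
Cxcl10, chr5:92348969-92349008, minus strand: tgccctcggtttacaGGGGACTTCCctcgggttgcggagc
Ccl9, chr11:83578647-83578686, minus strand: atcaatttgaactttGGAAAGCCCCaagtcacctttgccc
The neighbours Cxcl1 and Cxcl2 carried the same 10 letters 71 and 97 bases before their starts. A match is a description of letters, and binding was not measured.

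Members together were most abundant in Ptprc cells, with 1084 CPM over all libraries, followed by eOBs (652), Cdh5 cells (310.3), remaining cells (202), dOBs (159) and mOBs (53.8). The eOB value rested on WT library 1, which held 2273 of the 3752 UMIs. Without it eOBs were at 332, and without WT libraries 1 and 2 at 285, below Cdh5 cells (313). In these libraries alone eOBs were above Ptprc cells (1753 against 882 and 938 against 673 CPM). Since each transcript is tagged at its 3′ end, levels compare numbers of molecules between genes irrespective of length. Over all OBs, Cxcl12 held 60.1% of the members' UMIs, Ccl25 13.7% and Cxcl14 9.61%, and without WT libraries 1 and 2 they held 39.8, 21.3 and 15.5%. In Ptprc cells Ccl6 led with 22.8%, Ccl9 with 21.5% and Cxcl2 with 18.5%. Without WT library 1 the order changed to Ccl9 (23.5%), Cxcl2 (21.9%) and Ccl6 (14.6%), and without WT libraries 1 and 2 the shares were 26.0, 22.3 and 7.75%. Cxcl12 held 65.3% in Cdh5 cells and Cxcl14 held 47.1% in the remaining cells. The map of the 20 members by group of cells shows Cxcl12, Ccl25 and Cxcl14 as the leading genes of OBs, and most inflammatory genes highest in Ptprc cells. Cxcl1 was at 9.92 CPM in Ptprc cells and 8.62 in remaining cells, and Cxcl10 at 10.3 in Ptprc cells and 11.3 in eOBs, where 49 of 65 UMIs came from 1 cell.

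**Figure D1:**
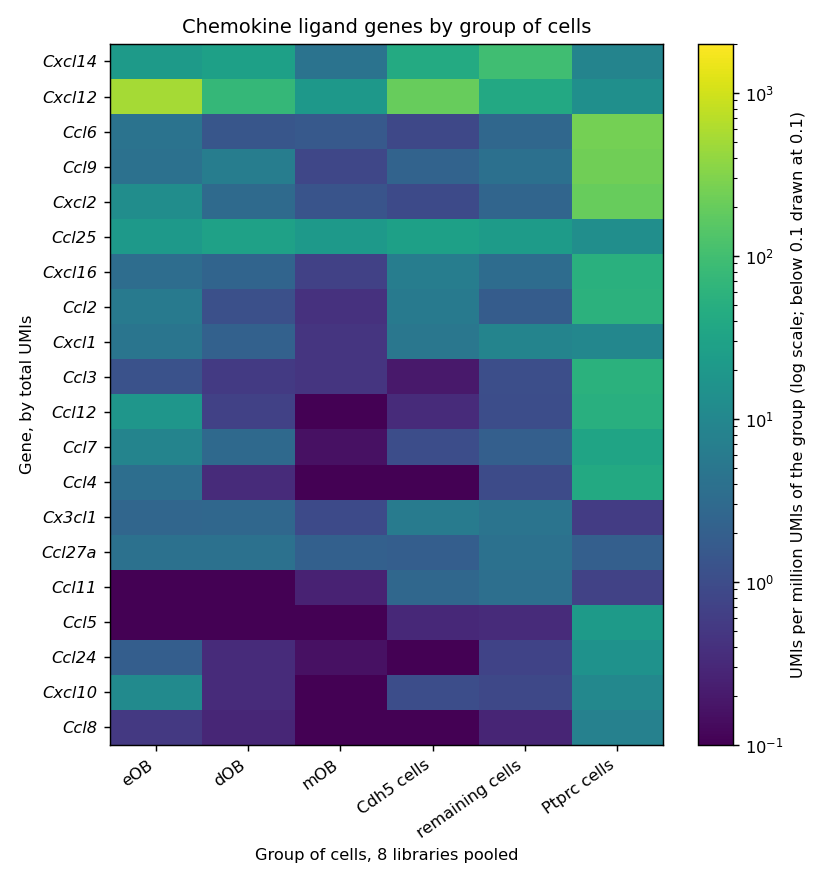
Level of the 20 members with at least 200 UMIs in each group of cells, as CPM over 8 libraries on a logarithmic colour scale. Cxcl12 is brightest in eOBs (518, or 182 without WT library 1) and Cdh5 cells (203, or 199 without it), Ccl6, Ccl9 and Cxcl2 in Ptprc cells (248, 233 and 200.4), and Ccl25 is nearly even across columns.

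Cxcl12 fell with OB maturation. In eOBs its level was 1673, 900.2, 103 and 203 CPM in WT libraries 1, 2, 5 and 6 and 91.1, 127, 117 and 64.1 in Het libraries 3, 4, 7 and 8. In mOBs the same libraries gave 21.6, 52.8, 28.1 and 15.8 (WT) and 8.66, 2.80, 19.8 and 4.51 (Het). WT libraries 1 and 2 were far above all others in eOBs, and every library was lower in mOBs than in its own eOBs. With the library as a block, the log2 fold change from eOB to mOB was -3.28 (SE 0.40, adjusted p = 1.77e-06 by edgeR). Without WT libraries 1 and 2 it was -2.60 (adjusted p = 1.36e-05). The share of cells with a Cxcl12 UMI, each cell thinned to 2000 UMIs, was 31.4% in eOBs, 12.2% in dOBs and 3.85% in mOBs, against 1.77% in Ptprc cells, taken as background (56.7, 35.8, 15.5 and 4.03% unthinned). Thinning left out 3 eOBs, 77 dOBs, 10 mOBs and 734 Ptprc cells.

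Cxcl14, a homeostatic chemokine of epithelium and connective tissue, was also lower in mOBs. Its level in eOBs was 10.8, 0, 26.5 and 27.9 CPM in WT libraries 1, 2, 5 and 6 and 116, 14.7, 5.37 and 47.4 in Het libraries 3, 4, 7 and 8. In mOBs it was 0, 0, 3.82 and 2.08 (WT) and 24, 5.60, 2.08 and 3.01 (Het), so library 3 led in both classes. From eOB to mOB the log2 fold change was -2.23 (SE 0.34, adjusted p = 3.02e-05 by edgeR). In dOBs the level was 27.3 over all libraries, near that of eOBs (22.2).

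Ccl25, which guides developing T cells in the thymus and lymphocytes in the gut, did not pass the test between eOBs and mOBs (log2 fold change 0.42, SE 0.19, edgeR adjusted p = 0.101, and 0.60 with adjusted p = 0.0441 without WT library 6). Its level in OBs was 11.9, 16.1, 26.3 and 30.1 CPM in WT libraries 1, 2, 5 and 6 and 9.34, 12.3, 31.3 and 32.2 in Het libraries 3, 4, 7 and 8. The 4 libraries of kit version 3.1 were above the 4 of kit version 3 in OBs, and the same held in eOBs, mOBs, Ptprc cells, Cdh5 cells and remaining cells, while the ranges overlapped in dOBs. Counting software changed with the kit, so the cause cannot be told apart. Ccl25 stood at 20.1 to 28.9 CPM in the 3 OB classes, 27.3 in Cdh5 cells, 22.9 in remaining cells and 13.1 in Ptprc cells. The share of thinned cells with a UMI was 4.41 to 6.14% in the OB classes and 2.49% in Ptprc cells (22.7 to 32.8% and 8.45% unthinned).

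**Figure D2:**
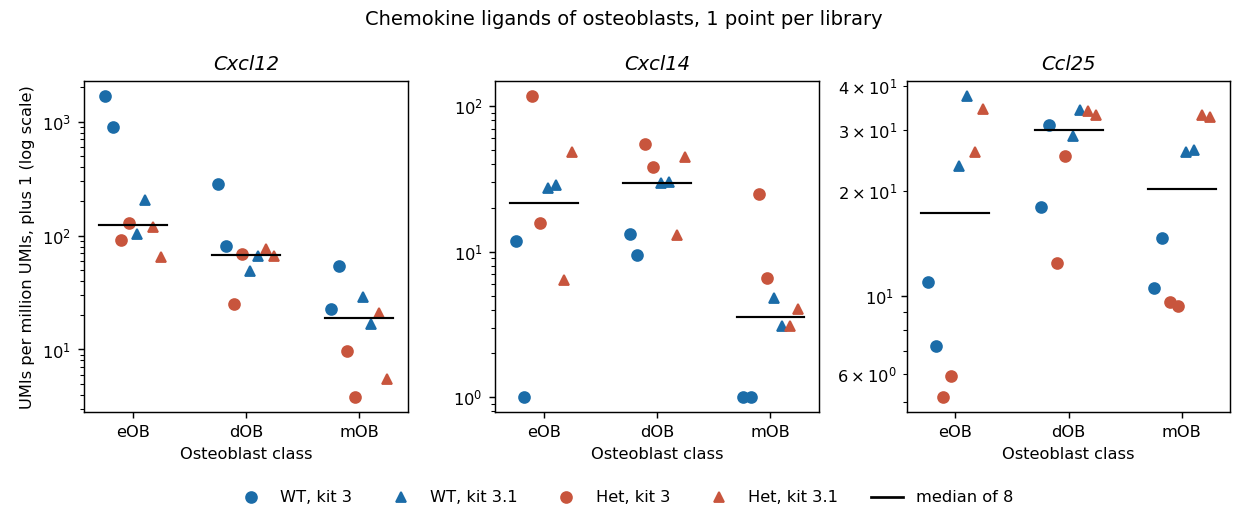
CPM plus 1, on a logarithmic axis, of Cxcl12, Cxcl14 and Ccl25 in eOBs, dOBs and mOBs of each library, coloured by genotype and shaped by kit version, with the median of 8 libraries as a bar. Cxcl12 steps down from a median of 122 in eOBs to 66.5 in dOBs and 17.8 in mOBs, while Ccl25 separates by kit version in eOBs and mOBs.

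Of the 42 members, 4 passed the low-count filter of the comparison between mOBs and eOBs, and 2 were called, both lower in mOBs. Among all 11229 genes tested, 35.8% were called, 18.1% lower and 17.7% higher. Ccl6 was the fourth (log2 fold change -0.04, SE 0.63, adjusted p = 0.979 by edgeR).

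In eOBs pooled over libraries, most Cxcl12 UMIs lay in cells with a UMI of Lepr. Cells with this transcript of the leptin receptor, known as a marker of Cxcl12-rich marrow stroma, were 137 of 379 eOBs and held 76.5% of the Cxcl12 UMIs, at 780.1 CPM against 248 in eOBs without one. Their median depth was 13856 against 9378 UMIs, and the part of depth was not tested. WT library 1 gave 2169 of the 2981 Cxcl12 UMIs. Without it the eOBs with Lepr held 61.6%, at 249 against 127 CPM, and without WT libraries 1 and 2 they held 65.2%, at 179 against 81.7 CPM. By library the share was 55.0 to 82.0% in 6 libraries, 31.8% in Het library 3 and 7.69% in Het library 4, where 22 and 26 UMIs were counted. In mOBs the 93 cells with Lepr held 16.1%. In WT library 1, 33 of 81 eOBs reached 1000 CPM of Cxcl12 and 51.9% had a Lepr UMI. In WT library 2 it was 6 of 23 eOBs, with Lepr in 21.7%. The other 6 libraries had 0 to 3 such eOBs each and Lepr in 17.4 to 48.1%.

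Of the list of stromal niche genes, 6 of 8 tested were lower in mOBs than in eOBs and 2 were higher, beside 18.1% of all genes lower and 17.7% higher. Kitl (stem cell factor) fell from 83.8 to 2.96 CPM, with a log2 fold change of -3.88 (SE 0.36, adjusted p = 3.81e-08 by edgeR). Ebf3, a transcription factor of marrow stroma, fell from 105 to 7.38 (-3.31, SE 0.28, adjusted p = 1.25e-08 by edgeR). Lepr (-2.96), Pdgfrb (-2.35), Foxc1 (-1.69) and Angpt1 (-1.22) were lower as well, and Bmp4 (1.97) and Pdgfra (0.80) were higher. Markers of other cell types moved with OB class, and their part in these results was not tested. All 7 endothelial markers had UMIs and summed to 21.8 to 1160 CPM in eOBs of the 8 libraries and 3.01 to 26.6 in mOBs, and the 8 pericyte and smooth muscle markers to 377 to 2154 and 63.6 to 453. The 6 monocyte markers summed to 268 to 1106 in eOBs and 77.9 to 182 in mOBs, and the B lineage markers (Pax5 at 0 in eOBs) to 176 to 1936 and 39.2 to 205. The chondrocyte markers were at 5162 to 13754 and 597 to 1501 in kit version 3.1, and at 18.7 to 1668 and 27.6 to 419 in kit version 3. The fibroblast markers went the other way, with 206 to 366 in eOBs and 359.6 to 532 in mOBs. Among OBs without a Ptprc or Cdh5 UMI the log2 fold change of Cxcl12 was -3.47 (adjusted p = 2.13e-07 by edgeR), a selection that leaves cells with pericyte markers in.

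Inflammatory members were rare in OBs, and several rested on few cells. Ccl12 had 103 UMIs in eOBs from 4 cells, of which 92.2% were in the cells that also had Ptprc UMIs and 90 in 1 cell. Of Ccl6 UMIs, 92.0, 93.1 and 86.7% in eOBs, dOBs and mOBs were in cells with Ptprc, although such cells made up only 3.43, 2.22 and 1.95% of these classes. Of 73 Cxcl2 UMIs in eOBs, 59 came from 1 cell. For other members this share differed between OB classes. Of Cxcl2 UMIs, 15.1, 87.3 and 92.0% were in cells with Ptprc in eOBs, dOBs and mOBs. Of Ccl7 UMIs it was 88.2% of 51 in eOBs, of which 45 were in 1 cell, 11.5% of 61 in dOBs and none of 3 in mOBs. Of Ccl4 UMIs it was none of 21 in eOBs, from 2 cells, 57.1% of 7 in dOBs and not the 1 in mOBs. Ccl2 had at most 30.3% there over 8 to 14 cells of each OB class. By contrast, 1.29 to 4.17% of Ccl25 UMIs and 2.33 to 8.42% of Cxcl12 UMIs lay in OBs with Ptprc. Ccl5 had 1 UMI of 45658708 in OBs, 0.0219 CPM with an exact 95% Poisson interval of 5.55e-04 to 0.122, which covers counting error only. Xcl1 had 2 UMIs there and Ccl11 had 7.

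Most inflammatory members were higher in Ptprc cells than in OBs. Of the 21 members that passed the filter of the comparison between groups of cells, 15 were higher and 4 lower in Ptprc cells than in OBs, 19 called in all beside 70.0% of all 14805 genes tested (35.3% higher and 34.7% lower). The filter keeps a gene that is abundant in any group, so members high in Ptprc cells entered through that level. Among the higher, Ccl6 and Ccl9, monocyte-attracting chemokines of myeloid cells, reached log2 fold changes of 7.31 (SE 0.52, adjusted p = 8.57e-12 by edgeR) and 7.0 (SE 0.65, adjusted p = 8.38e-10 by edgeR). Over the refits these ranged from 6.67 to 10.50 and from 6.65 to 8.79, and neither call was lost. Ccl3 and Ccl4, the macrophage inflammatory proteins, were higher by 6.99 and 6.91, and the neutrophil attractant Cxcl2 by 6.53. The monocyte attractants Ccl2, Ccl7, Ccl12 and Ccl8 were higher by 5.73, 4.48, 5.41 and 5.27, the eosinophil attractant Ccl24 by 5.27, the transmembrane chemokine Cxcl16 by 5.38, and Cxcl10 and Cxcl1 by 3.21 and 3.03. Ccl5 and Xcl1, chemokines of T and NK cells, had 1052 and 183 UMIs in Ptprc cells, beside the 1 and 2 in OBs.

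Cxcl12, Cx3cl1, Ccl27a and Ccl25 were the 4 members lower in Ptprc cells. Cxcl12 was lower by a log2 fold change of -3.65 (SE 0.48, adjusted p = 2.53e-07 by edgeR), Cx3cl1, the transmembrane ligand of Cx3cr1, by -1.54 (SE 0.51, adjusted p = 0.0103 by edgeR), the epithelial chemokine Ccl27a by -0.61 and Ccl25 by -0.55. The call of Ccl27a was lost with under 5% mitochondrial UMIs (-0.67, adjusted p = 0.0565 by edgeR) and that of Ccl25 with cells thinned to 2000 UMIs (-0.40, adjusted p = 0.0899 by edgeR). Cxcl14 (-0.53, adjusted p = 0.120 by edgeR) and the eosinophil attractant Ccl11 (0.88, adjusted p = 0.390 by edgeR) did not pass. Without WT libraries 1 and 2, 19 members were called as well, 15 higher and 4 lower, beside 70.5% of all genes.

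The leading members of Ptprc cells varied between libraries. Ccl6 was at 406, 289, 101 and 80.8 CPM in WT libraries 1, 2, 5 and 6 and at 251, 297, 48.3 and 75.7 in Het libraries 3, 4, 7 and 8. Cxcl2 was at 77.6, 136, 424 and 368 (WT) and 81.2, 71.6, 323 and 371 (Het). Ccl6 was thus higher and Cxcl2 lower in every library of kit version 3, with no overlap. Ccl3 was at 35.8, 40.0, 105 and 90.3 (WT) and 24.1, 36.3, 73.2 and 81.2 (Het), again with kit version 3.1 above. Ccl9 was at 139.7, 86.3, 393 and 423 (WT) and 299.8, 279, 380.0 and 351 (Het). Ccl2 was at 12.9, 7.53, 113 and 126 (WT) and 90.7, 73.4, 139.6 and 106 (Het), and Cxcl16 at 19.4, 17.5, 103 and 95.9 (WT) and 83.4, 70.7, 104 and 108 (Het). For these last 3 genes WT libraries 1 and 2 were lowest, below both Het libraries of the same kit, and all libraries of kit version 3.1 were highest. Of the 20 leading members, 10 were above and 2 below in all kit version 3.1 libraries without overlap in Ptprc cells, and 8 overlapped. Of all 15360 genes with at least 200 UMIs, 39.8% were apart in the same way, 32.1% above and 7.71% below.

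**Figure D3:**
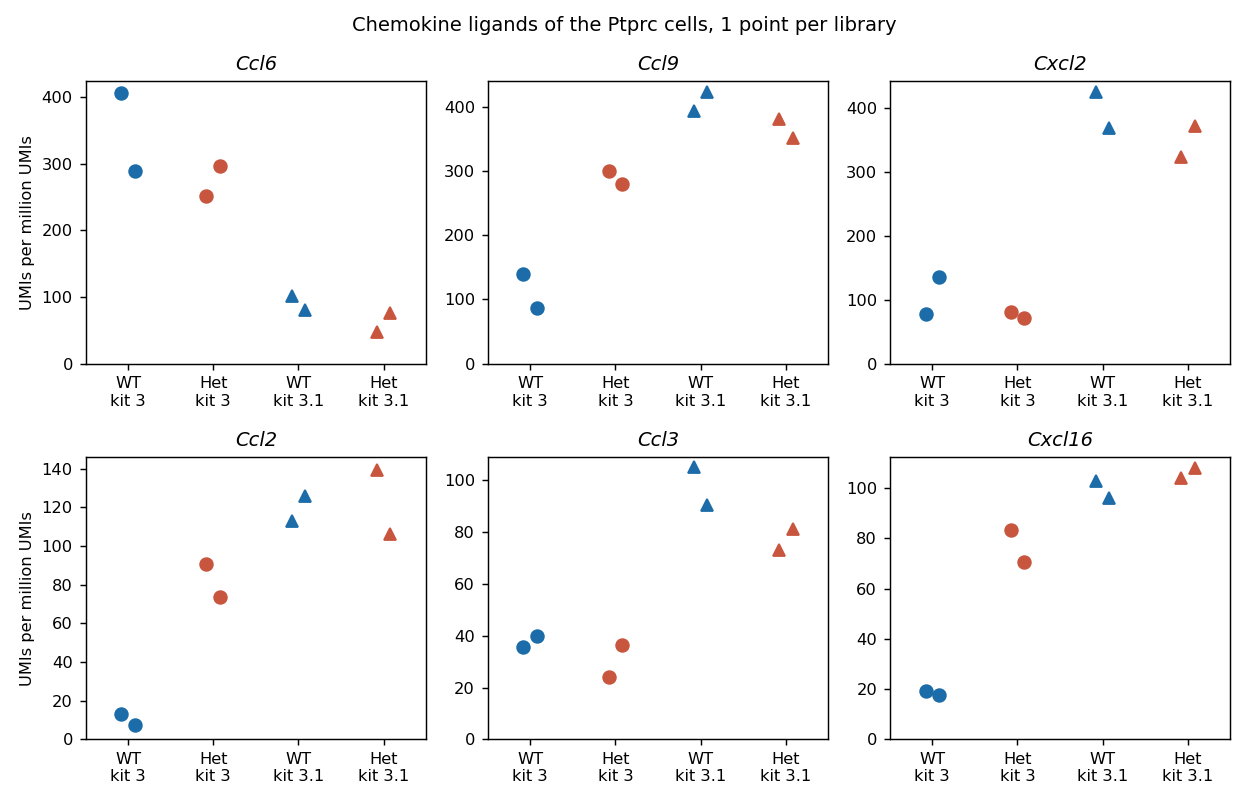
CPM of Ccl6, Ccl9, Cxcl2, Ccl2, Ccl3 and Cxcl16 in the Ptprc cells of each library, on linear axes from 0, by genotype and kit version. Ccl6 is highest in kit version 3, Cxcl2 and Ccl3 in kit version 3.1, and Ccl9, Ccl2 and Cxcl16 are lowest in the WT libraries of kit version 3.

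The makeup of Ptprc cells moved with these levels. Ptprc cells were put into classes where at least 3 markers of a type were detected and no other type had as many. The macrophage marker list, all 8 with UMIs, summed to 802 to 5103 CPM in Ptprc cells of WT libraries and 5713 to 7001 in Het libraries. The neutrophil lineage list, with none of its 9 markers at 0, summed to 7035 to 108163 and 3844 to 38180. WT libraries 1 and 2 held 306 and 222 monocyte-like cells, against 9 to 74 in the others. Less RNA of a gene per cell and fewer cells that make it cannot be told apart in a sum over Ptprc cells, and the part of makeup in each gene's level was not tested.

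The classes differed in their members. Macrophage-like cells (1204) had Cxcl2 at 429 CPM, Ccl9 at 290.4, Ccl2 at 185, Ccl6 at 184, Ccl12 at 175, Cxcl16 at 167, Ccl7 at 109, Ccl24 at 53.2 and Ccl8 at 26.8. In monocyte-like cells (692) Ccl6 led at 669, with Ccl9 at 199.8 and Ccl3 at 113, and Ccl12 at 0.626. Neutrophil lineage-like cells (2501) had Ccl6 at 340.0 and Cxcl2 at 224, with the other members at or below 18.0 over all libraries. Osteoclast lineage-like cells (205), the bone-resorbing lineage, had Ccl9 at 939 and no other member above 16.4. These levels mix class with library, since 90.3% of monocyte-like and 94.8% of neutrophil lineage-like cells came from kit version 3, against 50.3% of macrophage-like and 30.7% of osteoclast lineage-like cells. Within kit version 3 macrophage-like cells had Ccl6 at 503 and Cxcl2 at 85.7, and within kit version 3.1 at 37.2 and 587. Neutrophil lineage-like cells had Ccl6 above Cxcl2 in kit version 3 (331 against 192) and below it in kit version 3.1 (516 against 874), where Ccl3 was at 101. In kit versions 3 and 3.1, Ccl6 was at 659.7 and 735 in monocyte-like cells, and Ccl9 at 742 and 988 in osteoclast lineage-like cells.

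The T and NK, mast cell and basophil, dendritic and B lineage-like classes had at least 10 cells in only some of the libraries. T and NK-like cells (71) had Ccl5 at 1403 CPM and Xcl1, which attracts cross-presenting dendritic cells, at 346. Of the 191 Xcl1 UMIs in all kept cells, 90 came from 1 cell and 50% from 2 cells, so its level rested on few cells. Mast cell and basophil-like cells (41) had Ccl3 at 1465, Ccl4 at 1087, Ccl9 at 856 and Ccl6 at 596. Dendritic-like cells (50) had Cxcl16 at 120.4 and Ccl6 at 67.3. B lineage-like cells (453) had no member above 17.3. These classes had at least 10 cells in 2 libraries each, or 5 for the B lineage, so their levels are given pooled and with no test. The map of members by marker class shows that Ccl2, Ccl7, Ccl8, Ccl12 and Ccl24 shared the macrophage column, whereas Ccl6 and Ccl9 extended over several columns.

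**Figure D4:**
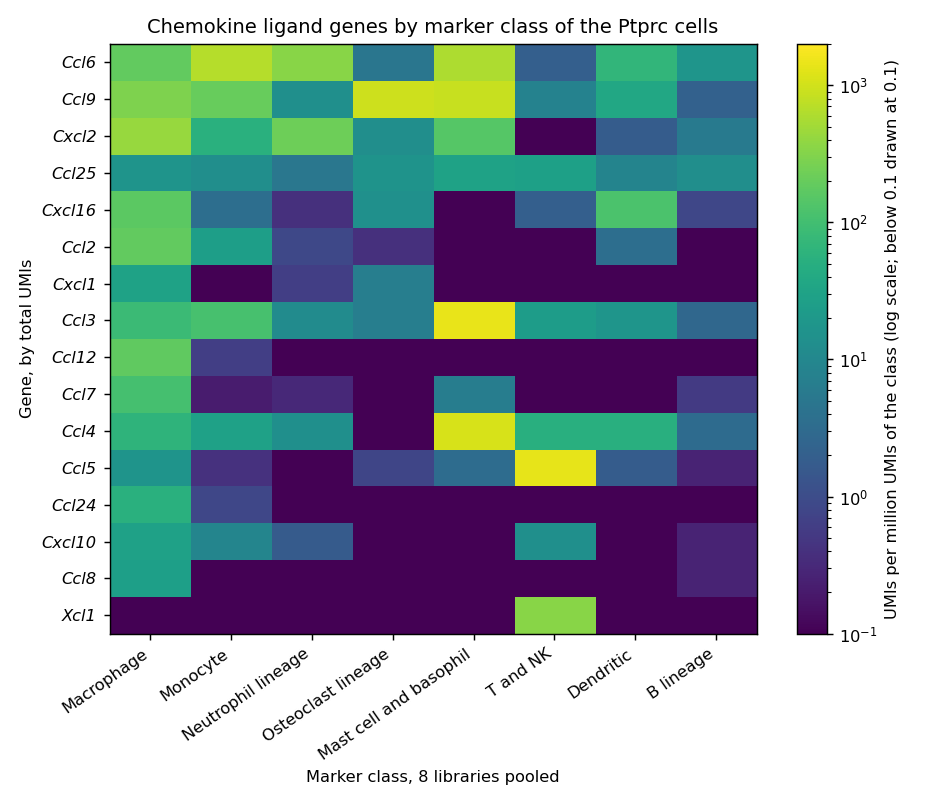
Level of 16 members in 8 marker classes of the Ptprc cells, as CPM of the class over 8 libraries on a logarithmic colour scale. Ccl9 is brightest in osteoclast lineage-like cells (939), Ccl5 in T and NK-like cells (1403), and Ccl3 and Ccl4 in mast cell and basophil-like cells (1465 and 1087).

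Cxcl12 was the leading member of the Cdh5 cells. Its level there was 229.9, 214, 189 and 218 CPM in WT libraries 1, 2, 5 and 6 and 197, 270.0, 154 and 109.6 in Het libraries 3, 4, 7 and 8. In eOBs the range was 64.1 to 1673. In Cdh5 cells Het library 8 was lowest and Het library 4 highest, so the genotypes overlapped. Against OBs the log2 fold change was 1.26 (SE 0.40, adjusted p = 0.0107 by edgeR). WT library 1 went the other way, with 609 CPM in its OBs, while the OBs of the other libraries were at 21.6 to 184, below their own Cdh5 cells. The 8 libraries gave 15.8% of thinned Cdh5 cells with a Cxcl12 UMI (22.8% unthinned), against 1.77% of Ptprc cells. The 944 Cdh5 cells with a Lepr UMI held 38.3% of the Cxcl12 UMIs of these cells, at 171 CPM against 229 in the others, with a median depth of 10024 against 4301 UMIs.

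Of the 21 members tested, 5 were higher and 1 lower in Cdh5 cells than in OBs, beside 52.2% of all genes called (25.9% higher and 26.3% lower). Cx3cl1, known from inflamed endothelium as an adhesion molecule for monocytes, was higher by 1.60 (SE 0.41, adjusted p = 0.00194 by edgeR), at 6.26 CPM in Cdh5 cells. Cxcl16 was higher by 1.74 (SE 0.43, adjusted p = 0.00135 by edgeR), Cxcl1 by 2.48 (SE 0.78, adjusted p = 0.00923 by edgeR) and Ccl11 by 3.47, where OBs held only 7 UMIs. The call of Cxcl1 was lost with cells thinned to 2000 UMIs (1.67, adjusted p = 0.107 by edgeR). Ccl27a was lower by -1.09 (SE 0.23, adjusted p = 2.37e-04 by edgeR). Without WT libraries 1 and 2, 10 members were called, 7 higher and 3 lower, beside 55.5% of all genes (29.8% higher and 25.7% lower).

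In the remaining cells pooled over libraries Cxcl14 was the leading member, while in WT libraries 1 and 2 Cxcl12 was above it (284 against 134 and 97.9 against 12.0 CPM). Its level was 134, 12.0, 72.5 and 61.2 CPM in WT libraries 1, 2, 5 and 6 and 239.7, 252, 59.6 and 82.9 in Het libraries 3, 4, 7 and 8, so both Het libraries of kit version 3 were highest and the WT libraries of that kit were apart from each other. Against OBs the log2 fold change was 2.54 (SE 0.29, adjusted p = 2.45e-07 by edgeR). Of the 21 members tested, 5 were called, all higher, beside 35.1% of all genes (19.0% higher). The other 4 were Ccl11 (4.27, with 7 UMIs in OBs), Cxcl1 (2.21, SE 0.71, adjusted p = 0.0176 by edgeR), Cxcl16 (1.08, SE 0.41, adjusted p = 0.0412 by edgeR) and Ccl5, which had 98 UMIs in remaining cells and 1 in OBs. The remaining cells also held 288 macrophage-like, 264 neutrophil lineage-like and 444 B lineage-like cells, all without a Ptprc UMI. The haematopoietic markers summed to 57.5 to 609.7 CPM in remaining cells and 45.1 to 153 in OBs. The part of such cells in these calls was not tested. The call of Cxcl1 was lost without Het library 8 (1.91, adjusted p = 0.0599 by edgeR) and with cells thinned to 2000 UMIs (1.82, adjusted p = 0.0554 by edgeR). That of Cxcl16 was lost without WT library 1 (0.97), Het library 3 (0.94), Het library 4 (0.92) or WT library 6 (1.23), with adjusted p-values of 0.0719, 0.108, 0.122 and 0.0540, and with a looser OB selection that asks for 1 UMI in place of 2 of the OB genes (0.38, adjusted p = 0.454 by edgeR). Without WT libraries 1 and 2, 7 members were called, 6 higher and 1 lower, beside 42.6% of all genes (22.5% higher and 20.1% lower).

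By marker class of the remaining cells, Cxcl14 was highest in fibroblast-like cells (502 CPM over 2357 cells) and at 65.3 in chondrocyte-like cells. Ccl11 was at 52.8 in fibroblast-like cells and 14.6 in pericyte and smooth muscle-like cells (1308), and at 0.0340 in chondrocyte-like cells. Cxcl12 was at 126 in pericyte and smooth muscle-like cells and 105 in fibroblast-like cells, against 10.6 in chondrocyte-like cells. Kit version 3 gave 86.0% of fibroblast-like, 57.8% of pericyte and smooth muscle-like and 16.3% of chondrocyte-like cells, so these levels mix class with library. Within kit version 3 Cxcl12 was at 227 in pericyte and smooth muscle-like, 123 in fibroblast-like and 16.2 in chondrocyte-like cells, and within kit version 3.1 at 52.2, 51.6 and 9.93. Cxcl14 in fibroblast-like cells was at 597 and 221 in the 2 kit versions, against 63.7 and 65.4 in chondrocyte-like cells. Ccl11 was higher in fibroblast-like than in pericyte and smooth muscle-like cells in kit version 3 (70.0 against 21.3) and lower in kit version 3.1 (1.88 against 9.75). Cxcl1 was at 11.3 in chondrocyte-like and 9.82 in pericyte and smooth muscle-like cells, with 2.06 and 7.94 in kit version 3 and 12.3 and 11.2 in kit version 3.1. Its level over the remaining cells was 1.79, 0.816, 8.65 and 11.8 in WT libraries 1, 2, 5 and 6 and 1.51, 1.67, 10.7 and 14.1 in Het libraries 3, 4, 7 and 8, with the kit versions apart and the genotypes overlapping. Chondrocyte-like cells numbered 141 to 1729 in libraries of kit version 3 and 2723 to 6524 in those of kit version 3.1. Cells with fewer than 3 markers (6878) had Cxcl12 at 179 and Cxcl14 at 145, with 274 and 202 in kit version 3 and 61.2 and 75.8 in kit version 3.1.

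The receptors for these ligands lay mainly in Ptprc cells, and all 13 of the 18 listed chemokine receptors that were tested were higher there than in OBs, beside 35.3% of all genes higher. Receptors abundant in Ptprc cells passed the filter through that level. The highest were Ccr2, the receptor of Ccl2, Ccl7 and Ccl12 (203 CPM), Cx3cr1, that of Cx3cl1 (159), Ccr1, which binds Ccl3, Ccl5 and Ccl9 (114), Cxcr2, which binds Cxcl1 and Cxcl2 (90.1), and Cxcr4, that of Cxcl12 (64.3). Ccr2 was higher by a log2 fold change of 6.65 (SE 0.70, adjusted p = 6.73e-09 by edgeR) and Cxcr4 by 4.45 (SE 0.61, adjusted p = 5.82e-07 by edgeR). In Cdh5 cells Cxcr4 was the only receptor of the 13 called against OBs (25.4 CPM, log2 fold change 3.83, SE 0.61, adjusted p = 9.59e-06 by edgeR). Ccr9, the receptor of Ccl25, had 143 UMIs in Ptprc cells and 4 in OBs.

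Of the atypical receptors, Ackr3 was higher in mOBs than in eOBs. It was at 4.63, 3.11, 14.0 and 5.37 CPM in eOBs of WT libraries 1, 2, 5 and 6 and 0, 14.7, 16.1 and 39.0 of Het libraries 3, 4, 7 and 8. In mOBs it was at 15.6, 29.7, 38.7 and 40.0 (WT) and 53.9, 29.1, 25.5 and 97.8 (Het). Every library was higher in mOBs, with a log2 fold change of 2.10 (SE 0.33, adjusted p = 4.38e-05 by edgeR). Ackr4 was at 33.9 in eOBs and 18.4 in mOBs, and was higher in OBs than in each other group, with log2 fold changes of -5.03 (SE 0.32) in Ptprc cells, -4.20 (SE 0.28) in Cdh5 cells and -2.66 (SE 0.23) in remaining cells (edgeR adjusted p = 8.41e-13, 5.41e-12 and 1.97e-09). Of the other listed genes, the platelet chemokine Pf4, which the naming rule leaves out, was at 792 in Ptprc cells. In the list of NF-κB feedback and inflammatory genes, 6 of 10 tested were lower in mOBs than in eOBs and none higher, beside 18.1% of all genes lower, led by the adhesion molecules Icam1 (-2.87, SE 0.41, adjusted p = 1.19e-05 by edgeR) and Vcam1 (-1.52, SE 0.37, adjusted p = 0.00290 by edgeR).

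Het and WT were compared in each group of cells, with kit version in the model. edgeR called no member in any group. Of all genes tested it called 0% of 8118 in eOBs, 0.0101% of 9857 in dOBs, 0.530% of 9623 in mOBs, 0% of 12087 in Ptprc cells, 0.249% of 12055 in Cdh5 cells and 0% of 15805 in remaining cells. At an unadjusted p under 0.05 there was 1 of 3 members in eOBs, beside 3.82% of all genes, 0 of 3 in dOBs (7.51%) and 1 of 2 in mOBs (11.2%). In Ptprc cells it was 10 of 18 members, beside 18.6% of all genes, in Cdh5 cells 4 of 8, beside 10.8%, and in remaining cells 6 of 20, beside 15.4%. DESeq2 called no member in the OB classes, beside 0.0370% of all genes in eOBs, 0.0406% in dOBs and 1.35% in mOBs. It called 4 members in Ptprc cells, beside 3.98% of all genes, 2 in Cdh5 cells (1.41%) and 5 in remaining cells (3.90%). Whether the change in Het differed between mOBs and eOBs was tested for 7 members. edgeR and DESeq2 called 0, with 0 at an unadjusted p under 0.05 by edgeR, beside 3.26% of all 11461 genes, of which edgeR called 0%.

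Cxcl12 had the smallest p of the members in eOBs. Its log2 fold change between Het and WT was -2.11 (SE 0.52, unadjusted p = 0.00179 and edgeR adjusted p = 0.909). Within kit version 3 it was -3.58 (SE 0.41) and within kit version 3.1 -0.75 (SE 0.37), and without WT libraries 1 and 2 together it was -0.75 (adjusted p = 0.988). In dOBs the levels were 284, 79.1, 47.6 and 64.6 CPM in WT libraries 1, 2, 5 and 6 and 24, 68.0, 75.5 and 65.0 in Het libraries 3, 4, 7 and 8, a log2 fold change of -0.71 (SE 0.47, adjusted p = 0.727 by edgeR) that became 0.08 without WT library 1. In mOBs it was -1.66 (SE 0.51, adjusted p = 0.209 by edgeR), with -2.94 and -0.59 within the kit versions. Without Het library 7 it was called (-2.86, adjusted p = 0.0211 by edgeR). Among all its refits, Cxcl12 was called lower in Het in 1 for eOBs, 1 for dOBs and 2 for mOBs. Without WT libraries 1 and 2 no member was called in any OB class. Markers of other cells moved with these groups. In eOBs the neutrophil lineage markers, 8 of 9 with a UMI and Mpo at 0, summed to 1432 and 1333 CPM in WT libraries 1 and 2 and at most 34.3 in the others. In mOBs the 8 pericyte and smooth muscle markers, none at 0, summed to 63.6 to 219 in WT and 222 to 453 in Het libraries, without overlap. Their part in the Cxcl12 levels was not tested.

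In remaining cells the Cxcl12 levels were 284, 97.9, 21.6 and 17.2 CPM in WT libraries 1, 2, 5 and 6 and 60.6, 62.1, 13 and 10.1 in Het libraries 3, 4, 7 and 8. Both Het libraries were below both WT libraries of their kit, with a log2 fold change of -1.32 (SE 0.31, adjusted p = 0.217 by edgeR). It was -1.89 (SE 0.31) in kit version 3 and -0.73 (SE 0.31) in kit version 3.1. DESeq2 called it (-1.32, adjusted p = 0.00310). The makeup of remaining cells moved with genotype within each kit version. The 8 chondrocyte markers summed to 2027 and 2194 CPM in WT and 6812 and 8573 in Het libraries of kit version 3, and to 22052 and 22670 against 25589 and 28635 in kit version 3.1. The 6 erythroid markers were lower in Het within each kit (3868 to 187932 in WT and 355 to 13310 in Het libraries). Their part in the Cxcl12 level was not tested. Ccl3 had the lowest p in remaining cells, with 11.7, 3.62, 1.01 and 0.373 CPM (WT) and 0.156, 0.233, 0.0881 and 0.0404 (Het), a log2 fold change of -4.58 (SE 0.63, unadjusted p = 1.13e-04 and edgeR adjusted p = 0.118). All Het libraries were below all WT libraries, in which the neutrophil lineage markers of the remaining cells summed to 5.05 to 4775 CPM against 0.888 to 953 in Het libraries. The part of these cells in the Ccl3 level was not tested. DESeq2 also called Ccl3, Cxcl2, Ccl6 and Ccl9 lower in Het remaining cells. By edgeR the log2 fold changes of the last 3 were -2.50, -2.55 and -1.88, with adjusted p-values of 0.150, 0.217 and 0.320.

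The 10 members with an unadjusted p under 0.05 in Ptprc cells went both ways. Ccl12 (log2 fold change 1.69), Ccl7 (1.61), Ccl2 (1.26), Cxcl16 (0.87) and Cxcl14 (1.72) had positive values, and Cxcl10 (-1.16), Ccl4 (-0.90), Ccl6 (-0.61), Cxcl2 (-0.49) and Ccl3 (-0.47) negative ones, with edgeR adjusted p-values of 0.149 to 0.261. Within kit version 3 the log2 fold change of Ccl2 was 2.71 (SE 0.25), with Ccl7 at 2.81 and Ccl12 at 3.19, against -0.01 (SE 0.22), 0.64 and 0.31 within kit version 3.1, and this difference was not tested. Macrophage-like cells were 229 of 2239 and 88 of 1776 Ptprc cells in WT libraries 1 and 2, and 99 of 197 and 190 of 508 in Het libraries 3 and 4. In kit version 3.1 they were 209 of 552 and 170 of 350 (WT) and 135 of 231 and 84 of 146 (Het). The part of this makeup in the fold changes was not tested. The log2 fold change of Ccl6 was -0.60 (SE 0.22) in kit version 3 and -0.62 (SE 0.24) in kit version 3.1. That of Cxcl14 was 3.23 (SE 0.59) in kit version 3 and 0.02 (SE 0.62) in kit version 3.1. In eOBs, dOBs, Cdh5 cells and remaining cells Cxcl14 was at 3.03, 2.05, 3.20 and 1.62 in kit version 3. In kit version 3.1 it was at -0.66, -0.28, 0.34 and 0.10 in these groups. Of DESeq2's 4 calls, Ccl7 and Ccl12 were positive and Ccl6 and Cxcl10 negative.

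**Figure D5:**
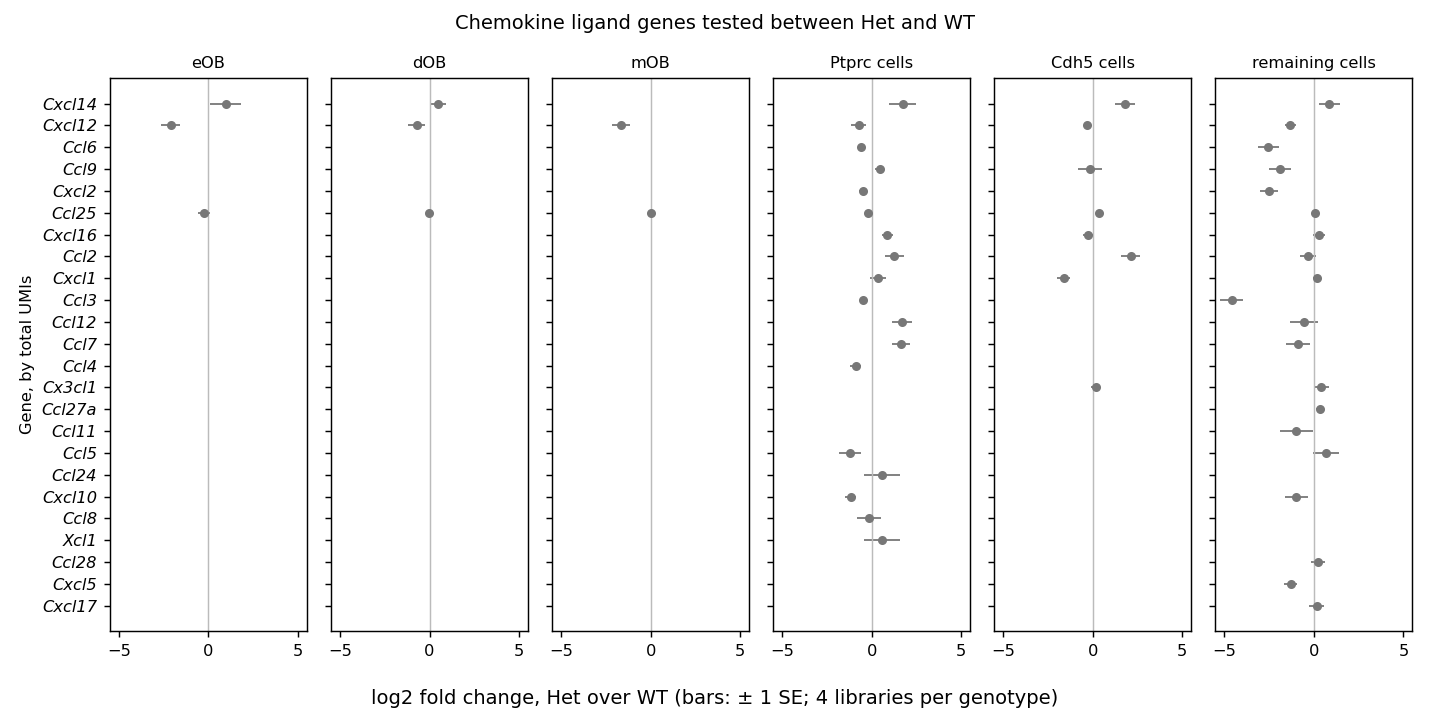
Log2 fold change of each tested member between Het and WT in the 6 groups of cells, with bars of 1 SE. Cxcl12 lies left of 0 in eOBs, dOBs and mOBs (-2.11, -0.71 and -1.66), Ccl25 lies near 0 (-0.27, -0.01 and 0.03), and no point passed the adjusted threshold of 0.05.

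In Cdh5 cells Cxcl1 was at 10.1, 10.5, 8.50 and 5.23 CPM in WT libraries 1, 2, 5 and 6 and 3.63, 2.15, 1.68 and 4.85 in Het libraries 3, 4, 7 and 8. All Het libraries were below all WT libraries, with a log2 fold change of -1.63 (SE 0.35, unadjusted p = 9.17e-04 and edgeR adjusted p = 0.108), of -1.91 (SE 0.46) in kit version 3 and -1.33 (SE 0.49) in kit version 3.1. DESeq2 called it (-1.58, adjusted p = 0.0213). Markers of other cells moved with genotype in the Cdh5 cells. The 8 pericyte and smooth muscle markers, none at 0, summed to 324 to 440.4 CPM in WT and 481 to 709 in Het libraries, without overlap. Within each kit version the 8 chondrocyte markers were higher in Het (27.7 to 4633 in WT and 1511 to 7037 in Het libraries) and the 6 erythroid markers lower (613 to 39087 and 30.3 to 4075). Their part in the results of Cdh5 cells was not tested. Ccl2 was at 1.81, 1.12, 3.54 and 1.74 (WT) and 10.2, 13.2, 2.91 and 14.6 (Het), with a log2 fold change of 2.12 (SE 0.54, adjusted p = 0.163 by edgeR). Het library 7 lay among the WT libraries, and without it the call passed (2.67, adjusted p = 0.0329 by edgeR). Of the refits of Ccl2 here, 3 called it and 12 did not. Cxcl14 (1.81) and Ccl25 (0.34) also had unadjusted p-values under 0.05 by edgeR (0.00858 and 0.0485). Their adjusted p-values were 0.271 and 0.460 by edgeR.

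Among the listed genes of the pathway, 3 of 24 tested in Cdh5 cells were called between Het and WT, all lower in Het, beside 0.249% of all genes called and 0.199% called lower, and 0 of 14 to 37 tested in each of the other groups. Ackr1, an atypical receptor of venules that carries inflammatory chemokines across the endothelium, was at 82.1, 121, 1.65 and 3.49 CPM in WT libraries 1, 2, 5 and 6 and at 14.5, 8.27, 0.306 and 0.809 in Het libraries 3, 4, 7 and 8. The kit versions were far apart, and in each kit both Het libraries were below both WT libraries, with a log2 fold change of -3.17 (SE 0.30, adjusted p = 0.00668 by edgeR). It no longer passed without Het library 4 (-2.78, adjusted p = 0.122 by edgeR), without WT libraries 1 and 2 together (-2.49, adjusted p = 0.363 by edgeR) and without kit version in the model (-3.15, not called by edgeR). Erythroid markers of Cdh5 cells were also lower in Het within each kit version, and their part in the Ackr1 level was not tested. Cxcr4 was at 33.1, 28.5, 32.6 and 37.6 (WT) and 16.7, 20.8, 17.0 and 20.2 (Het), and Sele, the endothelial adhesion molecule E-selectin, at 40.8, 45.7, 32.8 and 42.6 (WT) and 8.23, 9.10, 19.4 and 10.5 (Het).

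For both, all Het libraries were below all WT libraries. The higher pericyte and smooth muscle markers of Het Cdh5 cells stand beside these changes too, as do the chondrocyte and erythroid markers given above. Their part was not tested. The log2 fold changes were -0.85 (SE 0.12, adjusted p = 0.0326 by edgeR) for Cxcr4 and -1.77 (SE 0.25, adjusted p = 0.0326 by edgeR) for Sele. Leaving out single libraries kept the direction but lost the calls, of Cxcr4 in 7 of 8 cases, all but WT library 2 (-0.94 to -0.77, adjusted p up to 0.135), and of Sele in 5 of 8, namely WT libraries 1 and 6 and Het libraries 3, 4 and 8 (-1.81 to -1.64, adjusted p up to 0.194). Without WT libraries 1 and 2 together, Sele was at -1.24 (adjusted p = 0.0565 by edgeR) and Cxcr4 at -0.97 (adjusted p = 0.0496 by edgeR). Both calls were also lost without kit version in the model (adjusted p = 0.861 by edgeR for each), where edgeR called 0 of 12055 genes (283 at an unadjusted p under 0.05), and with the replicate block. That of Cxcr4 was lost as well with under 5% mitochondrial UMIs (-0.77, adjusted p = 0.0810 by edgeR) and with cells thinned to 2000 UMIs (-0.90, adjusted p = 0.185 by edgeR). Each was chosen by its call from these data, so its non-overlapping libraries are a description.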

How the data were processed

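Each library was deposited as a matrix of UMI counts, not normalized, that the authors obtained with Cell Ranger (5.0.0 for kit version 3 and 6.0.1 for kit version 3.1, per the file headers). The build was mm10 per the labels. Doublets were not called, and cells with Ptprc and Cdh5 UMIs were set aside. Counts were summed per library and group of cells, leaving out sums of fewer than 10 cells, and levels are UMIs per 1000000 UMIs of the sum (CPM). Members and lists were chosen with earlier results of these data known. edgeR 4.0.16 (filterByExpr, TMM, quasi-likelihood test, Benjamini-Hochberg over all genes tested, threshold 0.05, two-sided) compared Het with WT with kit version as covariate, and groups of cells with the library as a block. It was tested on simulated data. DESeq2 1.42.0 was an alternative. By the naming rule, members with at least 200 UMIs have levels, the 10 with most UMIs have values per library, and of the lists the genes called between Het and WT and the 5 most abundant may be named. Xcl1 (191 UMIs), Lepr, Bmp4, Foxc1, Angpt1, Ccr9, Ackr3 and other genes outside it were chosen after their values were seen. Replicate numbers did not pair libraries (correlation of deviations 0.04 and -0.10). Nothing in the labels ties a library to single animals, so p-values measure the spread between pooled libraries.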

Additional observations from a re-analysis of the deposited data

Results flagged for a closer look

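In 48 sets of 4 libraries whose values are printed, 2 held a value whose gap to its neighbour exceeded Dixon's 95% critical value, where chance flags about 1 in 20. The dOBs of WT library 1 had Cxcl12 at 284 CPM, with a gap of 0.867 of the range of the WT libraries. The mOBs of Het library 3 had Cxcl14 at 24 CPM, with a gap of 0.839 of the range of the Het libraries.

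In 2 of 24 cases every Het library was on one side of the WT libraries in kit version 3 and on the other in kit version 3.1. Neither a rate by chance nor the share of all genes was worked out for this count. In dOBs the ratio of the Het to the WT mean of Cxcl12 was 0.254 in kit version 3 and 1.25 in kit version 3.1. In Ptprc cells that of Ccl9 was 2.56 and 0.895. These differences were not tested. For Cxcl12 in dOBs of kit version 3.1, the nearest libraries were Het library 8 at 65.0 and WT library 6 at 64.6 CPM.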

How the results depend on the processing

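Of 187 refits of the 11 comparisons, 164 left the number of members called within 1.5 times its value. For Het against WT, where 0 were called, fits with no low-count filter called 4 members in eOBs, 2 in dOBs, 4 in mOBs, 14 in Ptprc cells and 4 in Cdh5 cells, and DESeq2 called 4 in Ptprc cells, 2 in Cdh5 cells and 5 in remaining cells. Without that filter, 141, 269, 536, 1863 and 978 of all genes (0.795, 1.39, 2.91, 8.91 and 4.74%) were called in these 5 groups, against 0, 1, 51, 0 and 30 with it, and DESeq2 called 3, 4, 130, 481 and 170, and 617 against 0 in remaining cells. Thinning to 2000 UMIs gave 1 in Ptprc cells and 3 in remaining cells (beside 4.17 and 0.646% of all genes), a mitochondrial limit of 5% gave 1 in Cdh5 cells (0.174%), and 2 gate UMIs gave 1 in Cdh5 cells (0.913%). Leaving out 1 library at a time gave 0 to 1 in mOBs and in Cdh5 cells. For mOBs against eOBs, where 2 were called, no filter gave 9, thinning 1 and looser OB selection 6, beside 20.7, 22.5 and 43.4% of all genes. For Cdh5 cells against OBs, where 6 were called, looser selection, 2 gate UMIs, keeping cells with both gates, and leaving out WT libraries 1 and 2 each gave 10, beside 53.0, 57.1, 53.9 and 55.5%. For remaining cells against OBs, where 5 were called, looser selection gave 3 and OBs without Ptprc and Cdh5 UMIs gave 9, beside 31.3 and 38.0%. The cause was not tested. Leaving out WT libraries 1 and 2 together, or WT library 1 from pooled levels in eOBs, was chosen after seeing the data.

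Cxcl12 in dOBs, -0.71 between Het and WT, was -1.08 to 0.08 on leaving out 1 library, positive without WT library 1, and 0.32 without WT libraries 1 and 2. Of 714 refits of 42 named results, 661 kept direction and call. The replicate block called 0 members between Het and WT in all 6 groups, and Cxcr4 (-0.85, edgeR adjusted p = 0.0886) and Sele (-1.82, edgeR adjusted p = 0.0922) in Cdh5 cells were no longer called. The numbers did not pair libraries. As few as 22 eOBs in a library and few UMIs per member limited which members could be tested in OBs.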
